A study of Mus musculus with 6 samples.

Results

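The 10 genes described here are targets of p53 whose products act in metabolism, outside the cell, on RNA or in signalling: Dcxr, Pltp, Gdf15, Zmat3, Aen, Phlda3, Ptp4a3, Ei24, Dram1 and Trp53i11. They were taken by symbol from the 23284 genes counted in sorted erythroblasts of mouse embryos at day E10.5, and all 10 symbols were present in all 6 libraries. This list and the gene lists set beside it were chosen with earlier results of these data known. Counts of their genes against all tested genes are therefore no independent support. The Setd8 null group held 3 libraries of genotype SETD8fl/fl EpoR Cre, in which Cre recombinase driven by Epor, the gene of the erythropoietin receptor, deletes the floxed alleles of Setd8 in erythroid cells. Controls comprised 2 libraries of genotype Setd8 +/+ EpoRCre (control replicates 1 and 3) and 1 of genotype Setd8 fl/fl EpoR WT, without Cre (control replicate 2), so that Cre was present in all null and in 2 of 3 control libraries. All embryos were C57BL/6. Live cells positive for Ter119, an antigen of red cell precursors, and CD71, the transferrin receptor, were sorted. The sample labels name fetal liver as the source and the design text fetal blood. Setd8, also named Kmt5a, is the enzyme that monomethylates lysine 20 of histone H4.

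The transcription factor p53 is held at a low level by the ubiquitin ligase Mdm2 and is stabilised by DNA damage and other stress. It then binds DNA as a tetramer and raises the transcription of genes that halt the cell cycle, repair DNA or start cell death. Beside these well-known classes it induces a mixed group of genes that alter lipid and sugar metabolism, autophagy, growth factor signalling, RNA stability and secreted signals. In erythroid precursors, p53 activity is known from anaemias in which ribosome production fails.

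The libraries held 15203019 to 21381086 gene reads in the null group and 7756940 to 21434719 in the control group. Sample titles split them into 2 sets: titles without a trailing letter (null replicate 1, control replicates 1 and 2; the unlettered set) and with a letter (null replicates 2 and 3, control replicate 3; the lettered set). Since each set held both genotypes, null was compared with control both with group alone and with the set as a further term (set-adjusted). Setd8 itself was counted at 48.9, 100.3 and 96.4 CPM (reads per 1e6, on library sizes scaled by TMM factors) in null replicates 1, 2 and 3, against 73.9, 74.8 and 203.5 CPM in control replicates 1, 2 and 3. Null was below control within each set, while null replicates 2 and 3 lay above control replicates 1 and 2. Setd8 fell set-adjusted, with a log2 ratio of -0.83 (SE 0.17, adjusted p = 0.00911, edgeR), and had a log2 ratio of -0.52 with group alone (adjusted p = 0.702). The counts cover the whole gene, not the deleted part alone. Of 10 erythroid markers, the embryonic globins Hbb-bh1, Hbb-y and Hba-x were abundant in every library, and adult Hba-a1 had 1 read, in null replicate 1. Hba-x, Tfrc and Epor fell set-adjusted (edgeR), and the summed level of the 10 markers was 213000 to 504000 CPM in null and 346000 to 524000 CPM in control libraries. Transcripts of 4 Y-linked genes summed to 164, 137 and 120 CPM in null replicates 1, 2 and 3, and to 117, 0.479 and 0 CPM in control replicates 1, 2 and 3. Y-linked transcripts were thus high in all null and in 1 of 3 control libraries, and their part in the results was not tested. Trp53, which encodes p53, stood at 186 ± 77.6 CPM in null and 209 ± 69.0 CPM in control libraries (SD, n = 3 each) and passed in neither fit (edgeR, adjusted p = 0.891 for group alone, 0.599 set-adjusted).

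Of the 10 genes, 7 had enough reads to be tested: Dcxr, Pltp, Zmat3, Aen, Phlda3, Ptp4a3 and Ei24. Of these, 6 were above the filter's level of 0.550 CPM in all 3 control libraries as well, while Pltp was above it in 3 null libraries and 1 control library. Dram1, Gdf15 and Trp53i11 were not tested and are given by their reads. With group alone, Dcxr and Aen rose, 2 of the 7, where 1.14% of the 10512 tested genes were higher in null cells and 0.00951% lower. Set-adjusted, Dcxr, Zmat3, Aen, Phlda3 and Ei24 rose, 5 of the 7, where 8.65% of tested genes were higher and 4.16% lower. DESeq2 called 3 of the 7 higher with group alone (Dcxr, Zmat3 and Aen; 6.63% of tested genes) and 5 set-adjusted (12% of tested genes). None fell in edgeR or DESeq2, and Ptp4a3 and Pltp passed in neither fit. The median log2 ratio of the 7 was 2.32 with group alone and 1.91 set-adjusted, against 0.13 and 0.044 over all tested genes. The group-alone calls moved with single libraries: Dcxr was not called without null replicate 2 (adjusted p = 0.0750), and Aen without any of the 6 (adjusted p = 0.0796 to 0.239, edgeR). Leaving out null replicate 1, the only null library of its set, took away the set-adjusted calls of Phlda3, Zmat3 and Aen and left those of Dcxr and Ei24. In bulk RNA, more cells that express a gene and more RNA per cell cannot be told apart.

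**Figure D1:**
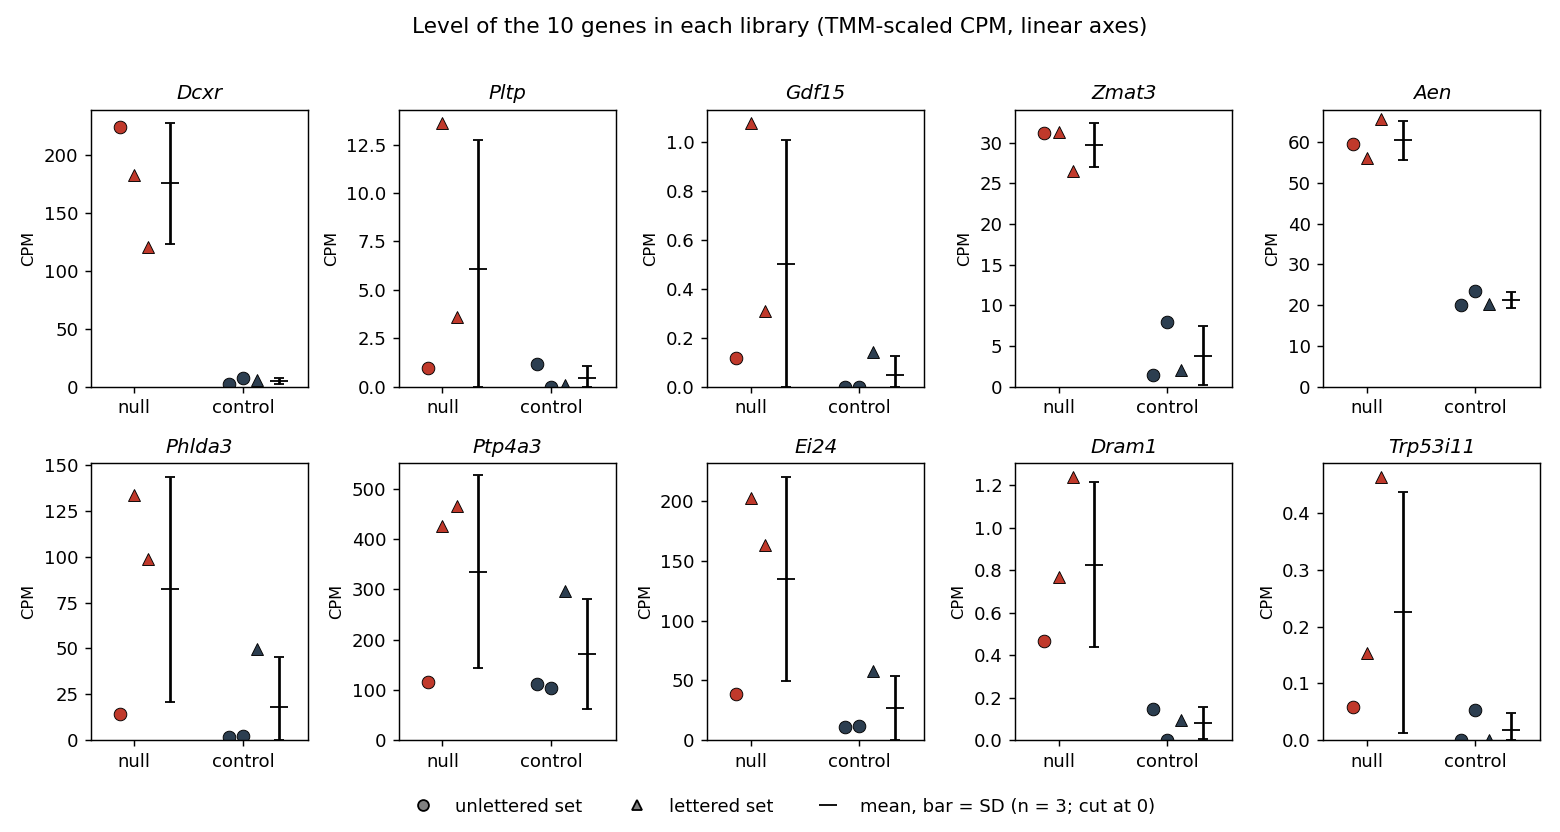
Level of each of the 10 genes in every library in TMM-scaled CPM on linear axes, null left and control right, circles for the unlettered and triangles for the lettered set, with mean and SD of 3 libraries. Dcxr, Zmat3 and Aen separate the groups whatever the set, whereas in Phlda3, Ptp4a3 and Ei24 the lettered control lies above the unlettered null library.

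Dcxr encodes L-xylulose reductase, a dicarbonyl and sugar reductase of the uronate cycle. It stood at 224, 183 and 120.5 CPM in null replicates 1, 2 and 3, against 2.52, 7.30 and 5.39 CPM in control replicates 1, 2 and 3. The groups were far apart: the lowest null library exceeded the highest control library in either set. The log2 ratio was 5.09 with group alone (SE 0.49, adjusted p = 0.00989, edgeR) and 5.11 set-adjusted (SE 0.35, 95% interval 4.33 to 5.90, adjusted p = 1.75e-05, edgeR). By set-adjusted p Dcxr ranked 17 of 10512 genes, and by size of the log2 ratio 199. The ratio of mean CPM was 45.7 within the unlettered and 28.1 within the lettered set. The 250 bases before its start are shown because Dcxr had the largest ratio of the tested members; capitals mark CATG, the centre of many p53 sites. The stretch lies at chr11:120727285-120727534 on the minus strand of GRCm38.p6 and comes from RefSeq, as do all sequences here.
Dcxr: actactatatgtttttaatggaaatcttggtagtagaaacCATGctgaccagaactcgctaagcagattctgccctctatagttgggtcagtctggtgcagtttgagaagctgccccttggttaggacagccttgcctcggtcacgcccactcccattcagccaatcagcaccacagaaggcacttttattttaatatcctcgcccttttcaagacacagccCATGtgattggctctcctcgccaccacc

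CATG began at positions -210 and -28 from the start of Dcxr. A CATG on either strand, which reads the same on both, was held by 61.1% of 32851 promoter windows of 300 bases (250 before to 50 after a start). The counts were made on build mm9, and the GRCm38.p6 coordinates apply to the printed sequences only.

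Pltp encodes the phospholipid transfer protein, which is secreted and moves phospholipids between lipoproteins. It had 0.935, 13.6 and 3.62 CPM in null replicates 1, 2 and 3, against 1.19, 0 and 0.0930 CPM in control replicates 1, 2 and 3. Null replicate 1 lay below control replicate 1, and only the lettered null libraries stood clearly higher. In the lettered set 335 null reads faced 2 control reads, 92.8 times as many per scaled library size (95% counting interval 25.5 to 769); in the unlettered set 16 null reads faced 8 control reads, a ratio of 2.98 (1.21 to 8.05). These exact intervals cover counting error only. All 8 reads of the unlettered controls lay in control replicate 1, the smallest library. By mean CPM, the ratio was 1.58 within the unlettered and 92.6 within the lettered set. The log2 ratio was 4.07 with group alone (SE 1.70, adjusted p = 0.312, edgeR) and 3.49 set-adjusted (SE 1.99, 95% interval -0.90 to 7.87, adjusted p = 0.292). Single libraries set this value: without control replicate 1, which held 8 of the 10 control reads, the set-adjusted log2 ratio was 6.51 (adjusted p = 0.0200, edgeR), without null replicate 1 it was 6.42 (0.204), and without control replicate 3 it was 0.89 (0.811).

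The exons of Pltp overlap those of Ctsa, the gene of the lysosomal protein cathepsin A, by 495 bases on the opposite strand in the GENCODE M21 annotation. No source used here gives the strand setting of the counting, so reads of the shared stretch cannot be assigned. Ctsa stood at 81.9, 86.4 and 54.8 CPM in null replicates 1, 2 and 3, against 23.7, 26.6 and 31.2 CPM in control replicates 1, 2 and 3. It rose set-adjusted (log2 ratio 1.44, SE 0.24, adjusted p = 0.00287, edgeR) and did not pass with group alone (log2 ratio 1.45, adjusted p = 0.0700). Its part in the Pltp counts was not tested.

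Gdf15 encodes a secreted member of the transforming growth factor beta superfamily that erythroblasts are known to release, and it answers both to p53 and to the integrated stress response. It had 2, 21 and 6 reads in null replicates 1, 2 and 3, against 0, 0 and 3 reads in control replicates 1, 2 and 3. These correspond to 0.117, 1.08 and 0.310 CPM in null libraries and to 0, 0 and 0.140 CPM in control libraries, where 3 reads are worth 0.140 to 0.445 CPM. Null replicate 1 lay below control replicate 3. Over all libraries 29 null reads faced 3 control reads, 8.13 times as many per scaled library size (95% counting interval 2.52 to 41.7). Tested without a filter on low counts, Gdf15 did not pass (edgeR, adjusted p = 0.584 for group alone, 0.604 set-adjusted).

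Because Gdf15 is also known as a target of the integrated stress response, 8 genes of that response were followed. Of 7 tested, Atf3 rose with group alone, where 1.14% of all tested genes were higher (edgeR). Set-adjusted, Atf3, Ddit3, Trib3, Sesn2 and Ppp1r15a rose, where 8.65% were higher (edgeR). Atf3, with 1 control read in all, entered the test through its null libraries alone; without it 0 of 6 passed with group alone and 4 set-adjusted. Of these genes Atf3 and Sesn2 are also known as p53 targets. Atf4, the central factor of the response, stood at 152 ± 16.1 CPM in null and 182 ± 25.4 CPM in control libraries (SD, n = 3 each) and passed in neither fit. Asns, the Atf4 target that makes asparagine, stood at 379 ± 76.1 CPM in null and 422 ± 116 CPM in control libraries and passed in neither fit. Ddit3, the factor CHOP, stood at 38.1 ± 16.2 CPM in null and 12.6 ± 4.41 CPM in control libraries (adjusted p = 0.00546 set-adjusted and 0.138 with group alone, edgeR).

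Markers of other cell types also differed between the groups, and are given for all the genes described here. The sum of 13 macrophage markers was 37.2 to 110 CPM in null and 1.92 to 10.7 CPM in control libraries. The macrophage sum was highest in null replicate 3, as were Dram1, Trp53i11, Aen and Ptp4a3; Pltp, Gdf15, Phlda3, Zmat3 and Ei24 were highest in null replicate 2 and Dcxr in null replicate 1. Of the 8 macrophage markers tested, 4 rose set-adjusted and 1 with group alone, where 8.65% and 1.14% of all tested genes were higher. C1qa and Fcgr3 entered the test through null libraries alone. Of the other 6 macrophage markers, 3 rose set-adjusted and 1 with group alone. Emr1 and Aif1 had no read in any control library. Of 11 endothelial markers, 5 were tested and 3 rose set-adjusted. Eng and Pecam1, 2 of those that rose, entered the test through null libraries alone, and of the 3 others tested 1, Tek, rose. The endothelial sum was 30.3 to 39.0 CPM in null and 3.89 to 16.7 CPM in control libraries, and Emcn and Cldn5 had no read in any library. Of 10 mesenchymal markers, 2 were tested and 1, Vim, rose set-adjusted, and the sum was 16.1 to 28.8 CPM in null and 0.148 to 4.37 CPM in control libraries; Dcn and Twist1 had no read in any library. Of 8 megakaryocyte markers, 5 were tested and 2 rose set-adjusted, and the sum was 89.2 to 139 CPM in null and 27.1 to 43.3 CPM in control libraries. Of 9 hepatic markers, 1 was tested and did not pass, the sum was 0.616 to 5.96 CPM in null and 0.533 to 4.37 CPM in control libraries, and Alb and Fgb had no read. The part of these cells in the results was not tested.

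Zmat3 encodes a zinc finger protein, also named Wig-1, that binds RNA, among others AU-rich elements and splice sites. It stood at 31.2, 31.4 and 26.6 CPM in null replicates 1, 2 and 3, against 1.48, 7.94 and 2.05 CPM in control replicates 1, 2 and 3. The null libraries were close together, 1.18-fold from lowest to highest, and all above the controls, which spread 5.35-fold. In the fits, the log2 ratio was 2.94 with group alone (SE 0.68, adjusted p = 0.0958, edgeR) and 3.21 set-adjusted (SE 0.56, 95% interval 1.97 to 4.45, adjusted p = 0.00427, edgeR). With group alone Zmat3 passed by DESeq2 (adjusted p = 0.000923) and with no filter in edgeR (adjusted p = 0.0242). The set-adjusted call was lost without null replicate 1, where the log2 ratio was 3.81 (adjusted p = 0.0836, edgeR), and without control replicate 3, where it was 2.63 (adjusted p = 0.0565).

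Aen encodes a nuclear exonuclease that acts on DNA and RNA and enhances apoptosis. It had 59.7, 56.1 and 65.6 CPM in null replicates 1, 2 and 3, against 20.2, 23.5 and 20.2 CPM in control replicates 1, 2 and 3. Replicates were closer than for any other member, 1.17-fold from lowest to highest in either group, and the groups did not overlap. Null over control, the log2 ratio of Aen was 1.51 with group alone (SE 0.25, adjusted p = 0.0464, edgeR) and 1.52 set-adjusted (SE 0.22, 95% interval 1.03 to 2.01, adjusted p = 0.00138, edgeR). The ratio of means was 2.73 within the unlettered and 3.02 within the lettered set. With size-factor scaling (RLE) in place of TMM, the group-alone call was lost (adjusted p = 0.0614, edgeR). The set-adjusted call was lost without null replicate 1 (adjusted p = 0.0571).

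Ei24 encodes a membrane protein of the endoplasmic reticulum with a role in autophagy, first described as p53-induced. It had 38.6, 203 and 164 CPM in null replicates 1, 2 and 3, against 11.1, 11.7 and 58.1 CPM in control replicates 1, 2 and 3. The groups overlapped, because control replicate 3 lay above null replicate 1, but within each set the null libraries were higher. The ratio of means was 3.39 within the unlettered and 3.15 within the lettered set. The log2 ratio was 2.32 with group alone (SE 0.85, adjusted p = 0.258, edgeR) and 1.70 set-adjusted (SE 0.18, 95% interval 1.30 to 2.11, adjusted p = 0.000197, edgeR). Its set-adjusted p ranked 63 of 10512, and the set-adjusted call held without each library in turn (adjusted p = 0.000394 to 0.0158, edgeR). Its exons overlap the antisense gene Gm26787 by 324 bases in GENCODE M21, and that gene was not analysed here.

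RefSeq windows around the start were found for 8 of the 10 genes, 10 windows in all since Aen and Gdf15 have a pair each; Ptp4a3 and Zmat3 had no entry. They were searched on both strands for the p53 decamer, the motif that fills a single side of a p53 site. Of the 8 genes, Aen, in both of its windows, and Ei24 held a match. Of all windows 8.36% did, which is a share of single windows and not of genes. The matches are printed with their surroundings, in capitals; each reads the same on both strands under the motif and counts once. The Aen stretch is at chr7:78895897-78895956 on the plus strand, and the Ei24 stretch at chr9:36797315-36797374 on the minus strand, both GRCm38.p6.
Aen: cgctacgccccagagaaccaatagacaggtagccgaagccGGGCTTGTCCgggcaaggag
Ei24: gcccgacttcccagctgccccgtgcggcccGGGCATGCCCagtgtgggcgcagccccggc

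The Aen match began at position 11 from its upstream start and at -121 from its downstream start, and the Ei24 match at -10. The Ei24 match contains a CATG, and the Aen match does not. A pair of decamers spaced by 0 to 13 bases was found in none of the members' windows and in 0.0731% of all windows, and a CATG followed after 6 arbitrary bases by another CATG in none of the members' windows and in 0.712% of all. A match describes these letters in this window only, and p53 sites farther away or in introns were not searched.

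Phlda3 encodes a small protein with a pleckstrin homology domain that competes with the kinase Akt for membrane lipids and so lowers Akt activity. It had 14.2, 134 and 99.0 CPM in null replicates 1, 2 and 3, against 1.93, 2.08 and 49.4 CPM in control replicates 1, 2 and 3. Null replicate 1 lay below control replicate 3, so the groups overlapped, while within each set null was above control. For Phlda3 the log2 ratio was 2.20 with group alone (SE 1.37, adjusted p = 0.519, edgeR) and 1.91 set-adjusted (SE 0.32, 95% interval 1.21 to 2.60, adjusted p = 0.00284, edgeR). The set-adjusted call was lost without null replicate 1, where the log2 ratio was 1.23 (adjusted p = 0.0836, edgeR). Without control replicate 3 the log2 ratio was 2.80 set-adjusted (adjusted p = 0.00213) and 5.27 with group alone (adjusted p = 0.0601). The ratio of means was 7.09 within the unlettered and 2.35 within the lettered set.

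Ptp4a3 encodes PRL-3, a membrane-bound phosphatase that p53 is known to induce in mouse cells. It had 115, 426 and 466 CPM in null replicates 1, 2 and 3, against 112, 104 and 297 CPM in control replicates 1, 2 and 3. Null replicate 1 lay beside the unlettered controls, at 1.07 times their mean, while the lettered null libraries were above the lettered control by 0.58 on the log2 scale. Over all libraries the log2 ratio was 0.97 with group alone (SE 0.62, adjusted p = 0.534, edgeR) and 0.34 set-adjusted (SE 0.17, adjusted p = 0.213, edgeR). The set-adjusted 95% interval ran from -0.026 to 0.71, so a change larger than that upper bound lies outside it, and no change lies inside. Ptp4a3 thus had the smallest set-adjusted log2 ratio of the 7.

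Dram1 encodes a lysosomal membrane protein that p53 is known to use to raise autophagy. It had 8, 15 and 24 reads (0.468, 0.770 and 1.24 CPM) in null replicates 1, 2 and 3, against 1, 0 and 2 reads (0.148, 0 and 0.0930 CPM) in control replicates 1, 2 and 3. Every null library was above every control library. Over all libraries 47 null reads faced 3 control reads, 13.2 times as many per scaled library size (95% counting interval 4.24 to 66.2). In the fit without a filter on low counts it did not pass (edgeR, adjusted p = 0.519 for group alone, 0.489 set-adjusted).

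Trp53i11 encodes a p53-induced membrane protein that is linked to cell death. It had 1, 3 and 9 reads in null replicates 1, 2 and 3, against 0, 1 and 0 reads in control replicates 1, 2 and 3. All null libraries were above control replicates 1 and 3, which had none. Null replicate 1 and control replicate 2 had 1 read each, so their order in CPM (0.0584 and 0.0533) reflects library size alone. The ratio of the sums, 13 reads against 1, was 10.9, and its counting interval of 1.64 to 464.5 was the widest of the 10 genes. It did not pass without a filter on low counts (edgeR, adjusted p = 0.581 for group alone, 0.716 set-adjusted).

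**Figure D2:**
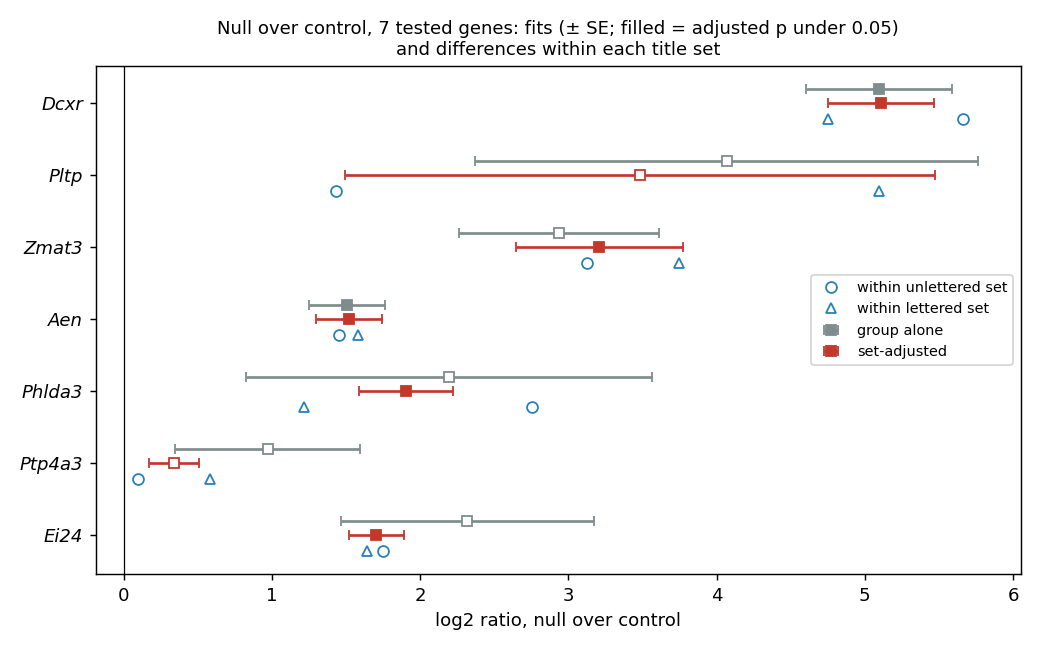
Log2 ratio of null over control for the 7 tested genes, with squares for the fits with group alone (grey) and set-adjusted (red), bars for SE, filled where adjusted p was under 0.05, and open blue symbols for the difference within each title set. The SE of Phlda3 and Ei24 is narrower set-adjusted (0.32 and 0.18) than with group alone (1.37 and 0.85).

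The members differed in how they varied over libraries. Dcxr, Zmat3 and Aen, 3 of the 7 tested, had every null library above every control library, as did 14.9% of all tested genes. Within both title sets every null library was above every control library for 6 of the 7, all but Pltp, where 25.7% of tested genes did so. The title set itself separated Phlda3, Ei24 and Ptp4a3, 3 of the 7, where 28.5% of tested genes differed between sets in either direction and 17.7% were lower in the unlettered set. All 3 were lower in the unlettered set: Phlda3 with a log2 ratio of unlettered over lettered of -3.74 (SE 0.34, adjusted p = 8.15e-06), Ei24 with -2.30 (SE 0.19, adjusted p = 4.08e-06) and Ptp4a3 with -1.71 (SE 0.17, adjusted p = 1.77e-05), by edgeR in the set-adjusted fit. In each of the 3 the set ratio was larger in size than the set-adjusted genotype ratio, which was 1.91 for Phlda3, 1.70 for Ei24 and 0.34 for Ptp4a3. Dcxr, Zmat3, Aen and Pltp did not pass for the set (adjusted p = 0.520, 0.426, 0.911 and 0.791, edgeR).

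**Figure D3:**
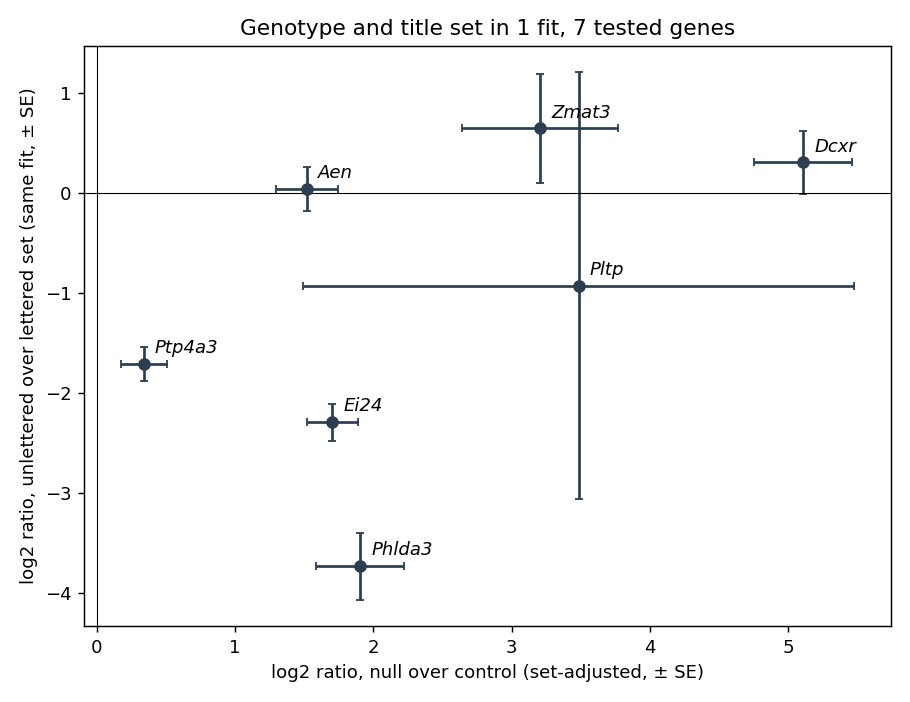
Log2 ratio of null over control (horizontal) against log2 ratio of the unlettered over the lettered set (vertical), both from the set-adjusted fit with SE, for the 7 tested genes. Dcxr, Zmat3 and Aen lie between 0.043 and 0.65 on the vertical axis, and Phlda3, Ei24 and Ptp4a3 lie between -1.71 and -3.74.

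Whether the genotype ratio itself differed between the sets was tested by an interaction term. None of the 7 passed (0 at adjusted p under 0.05 in edgeR and 0 in DESeq2, where 0.00951% of tested genes passed in edgeR and 0.0761% in DESeq2). Phlda3 was the 1 member at an unadjusted p under 0.05, where 7.21% of tested genes were. Its log2 ratio was 1.57 larger in the unlettered set (SE 0.44, adjusted p = 0.568, edgeR), with a null library at 14.2 CPM against controls of 1.93 and 2.08 CPM there. For Aen and Ei24 the difference was -0.14 (95% interval -1.12 to 0.83) and 0.10 (-0.67 to 0.87). For Pltp it was -5.52 (95% interval -12.0 to 0.94), with 10 control reads in all, and 0.73 without control replicate 1. In the 4 fits that left out a library and kept both groups in both sets, 0 members passed, and Phlda3 ran from 1.46 to 1.90 (adjusted p = 0.0592 to 0.878, edgeR).

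Genes related to the 10 by family or, as Lcat, by function only were followed beside them, 24 in all, of which 15 were tested. All 24, Lcat included, are termed family relatives here. With group alone 0 passed in edgeR, and 2 rose by DESeq2, where 6.63% of tested genes were higher. At an unadjusted p under 0.05 there were 4 of the 15, and 1641 of the 10512 tested genes (edgeR, group alone). Set-adjusted, Phlda1, Cbr1 and Isg20 rose and 0 fell (edgeR), where 8.65% of tested genes were higher and 4.16% lower. The median log2 ratio of the 15 was 0.22, against 0.044 over all tested genes. Phlda1, a relative of Phlda3 with the same lipid-binding domain, had 38.7, 194 and 93.2 CPM in null replicates 1, 2 and 3, against 0.445, 0.852 and 7.91 CPM in control replicates 1, 2 and 3. Its log2 ratio was 4.77 set-adjusted (SE 0.42, adjusted p = 8.05e-05, edgeR) and 5.09 with group alone (adjusted p = 0.102). Every null library was above every control. Phlda2, another relative and an imprinted gene, had at most 0.308 CPM in any null and 0.0533 CPM in any control library.

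Isg20, an exonuclease related to Aen, had 10.1, 1.95 and 6.51 CPM in null replicates 1, 2 and 3 and no read in any control library, at least 94.2-fold higher against 3 reads over the control group. It entered the test through its null libraries alone, so its set-adjusted call is no support. Without it, 2 of 14 tested relatives rose set-adjusted, where 8.65% of all tested genes did, with a median log2 ratio of 0.16. Cbr1, a carbonyl reductase of the same enzyme superfamily as Dcxr, stood at 66.5 ± 11.4 CPM in null and 33.4 ± 14.9 CPM in control libraries (SD, n = 3 each; adjusted p = 0.0366 set-adjusted, edgeR). The close relatives of Ptp4a3 passed in neither fit: Ptp4a1 stood at 8.54 ± 2.01 CPM in null and 3.92 ± 2.84 CPM in control libraries, and Ptp4a2 at 298 ± 247 CPM in null and 561 ± 337 CPM in control libraries (SD, n = 3 each). Ptp4a2 was higher in the unlettered set (log2 ratio of unlettered over lettered 2.02, adjusted p = 2.66e-06, edgeR), where Ptp4a3 was lower. Reads that align to more than 1 place made up 22.5% to 32.4% of the unlettered tables and are not among the gene counts, which can lower counts of genes with near-identical copies. Among the relatives of Zmat3, Zmat2 and Zmat5 had set-adjusted log2 ratios of 0.085 and -0.10 and did not pass.

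Among 40 other p53 targets, listed by function, 38 were tested. With group alone 12 rose and 0 fell, and set-adjusted 24 rose and 0 fell, with a median log2 ratio of 2.41 and 2.34. Over all tested genes 1.14% were higher with group alone and 8.65% set-adjusted, the shares to set beside every list of these targets. In 6 of the 38 (Bbc3, Cpt1c, Ddit4, Eda2r, Ephx1 and Fas) no control library reached 0.550 CPM, so that they entered the test through null libraries alone; of the other 32, 9 rose with group alone and 19 set-adjusted, with a set-adjusted median of 2.02. Every null library was above every control library in 28 of the 38, where 14.9% of all tested genes did so. The 28 include the 6 genes that entered the test through null libraries alone, whose separation is no support. Of 5 feedback genes 3 rose set-adjusted, with the smallest p for Ccng1, a cyclin that acts on Mdm2 (log2 ratio 3.49, SE 0.20), and Trp53inp1, which promotes p53 activity and autophagy (6.24, SE 0.35). Of 6 cell cycle genes 5 rose, among them the kinase inhibitor Cdkn1a (6.21, SE 0.35) and the kinase Plk2 (6.42, SE 0.47). Of 11 apoptosis genes 8 rose, among them the receptor Eda2r (7.10, SE 0.57, with 3, 2 and 3 control reads) and the membrane protein Perp (3.22, SE 0.33). Of the 8 apoptosis genes left without Bbc3, Eda2r and Fas, 6 rose.

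Of 7 repair genes 3 rose, among them the translesion polymerase Polk (3.47, SE 0.39) and the endonuclease Ercc5 (2.29, SE 0.28). The median log2 ratio of the repair genes was 1.11 set-adjusted, below the 2.82 to 3.34 of the other 4 lists (1.78 to 3.34 without the genes tested through null libraries alone); the difference between lists was not tested. Of 9 tested metabolic targets 5 rose, among them Abhd4, a lipase of the phospholipid pathway (2.82, SE 0.24), and Cpt1c, a member of the carnitine palmitoyltransferase family (6.35, SE 0.68, with 3, 1 and 5 control reads). Of the 6 left without Cpt1c, Ddit4 and Ephx1, 2 rose. All these ratios are set-adjusted log2 ratios of null over control with adjusted p of at most 0.000407 (edgeR); with group alone Perp and Polk did not pass (adjusted p = 0.103 and 0.0574), and the other 8 named did. The 5 members that rose ran from 1.52 for Aen to 5.11 for Dcxr on the same scale. Without null replicate 2, 0 of the other targets passed with group alone (edgeR), and 23 did set-adjusted. Over all 6 libraries 27 of the 38 were at an unadjusted p under 0.05 with group alone, as were 1641 of the 10512 tested genes (edgeR). DESeq2 called 25 higher with group alone, where 6.63% of tested genes were. Each of these counts was taken over a list that holds the 6 genes tested through null libraries alone, whose calls are no support.

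**Figure D4:**
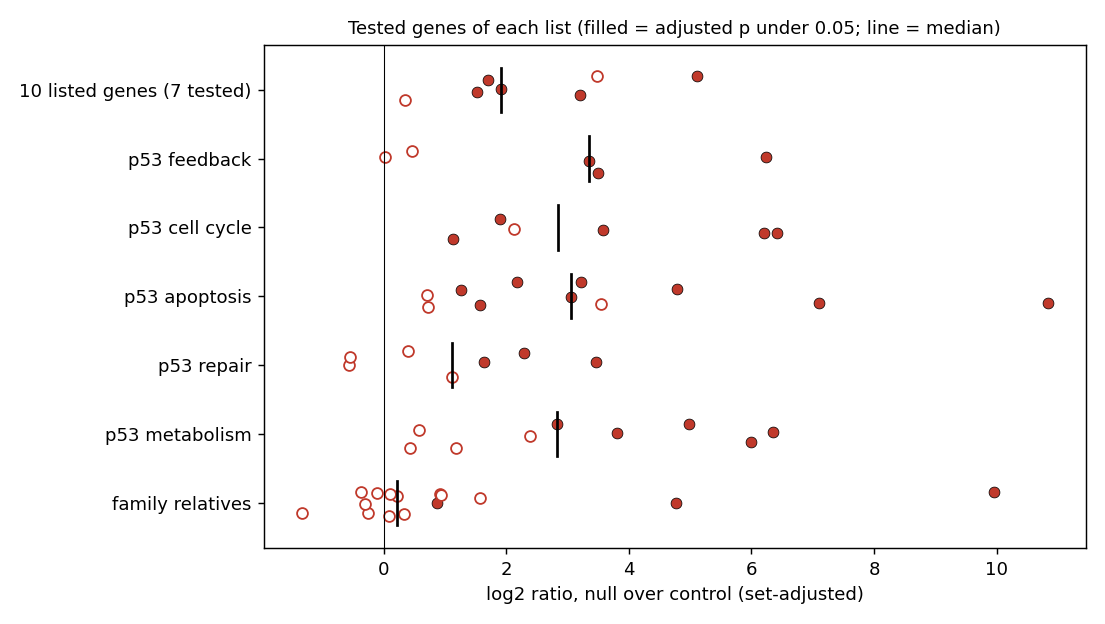
Set-adjusted log2 ratio of null over control for each tested gene of the 10 listed genes, 5 lists of other p53 targets and the family relatives, filled where adjusted p was under 0.05, with a line at each list's median. The median is 1.91 for the listed genes and 0.22 for the family relatives. Points and medians include genes that entered the test through null libraries alone, which are no support. Without them the median is 1.87 for apoptosis, 1.78 for metabolism and 0.16 for the family relatives, and the other lists hold none.

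For each tested member the gene with the most similar pattern was sought among the other 10511 tested genes, by the root mean square difference of log2 CPM, centred on each gene's mean, over the 6 libraries. The closest was Pla2g16, a phospholipase, for Dcxr (0.371 log2 units), Pstpip2, an adaptor protein, for Zmat3 (0.199) and BC055111 for Aen (0.0898). For Ei24 it was Ero1l, the oxidase that forms disulfide bonds in the endoplasmic reticulum (0.127), for Ptp4a3 Wsb2 (0.0887), for Phlda3 Sdhaf1, an assembly factor of succinate dehydrogenase (0.288), and for Pltp the phosphatase Dusp6 (0.728). Pla2g16 stood at 20.1 ± 10.9 CPM in null and 0.313 ± 0.145 CPM in control libraries (SD, n = 3 each); since likeness to a member chose these genes, their own difference between the groups was not taken as a result. No member was the nearest gene of another: the closest other member ranked 108 for Phlda3, which was Ei24, and 3572 for Aen, which was Ptp4a3.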

How the data were processed

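Polyadenylated RNA of 3 Setd8 null and 3 control erythroblast samples was sequenced. The authors deposited raw counts per gene symbol, 1 table per library. Per the submitters' processing notes the tools were FastQC, Trimmomatic 0.32, TopHat2 2.1.0, HTSeq 0.6.1 and edgeR, with build mm9; no source used here gives the strand setting. The unlettered tables carried HTSeq summary lines (6.07%, 42.9% and 7.72% of reads without a feature in null replicate 1 and control replicates 1 and 2) and 25 symbols turned into dates; the lines were left out and the symbols mapped back to March and Sept names. Pidd1, Hsd17b8, Tigar and Adgre1 were matched by older symbols.

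The test used edgeR 4.0.16 in R 4.3.3: filterByExpr (10512 genes), TMM, robust glmQLFit and 2-sided glmQLFTest, Benjamini-Hochberg over all tested genes at 0.05, with group alone (4 residual degrees of freedom), with title set added (3), and with their interaction (2). SEs were derived from the F statistic. CPM use TMM-scaled library sizes; log2 CPM within sets used a prior count of 2. Steps were tested on simulated data. Alternatives were DESeq2 1.42.0, RLE scaling, no filter and leaving out each library. Libraries of the same group differed far beyond sampling noise (chi-square over degrees of freedom, 21.9 to 369). The labels do not state separate embryos for the replicates; p-values reflect only sample-to-sample spread, possibly technical. Exact counting intervals cover counting error only. The members and lists were chosen with earlier results of these data known. Named were all members, of each list of other p53 targets the 2 with the smallest set-adjusted p and any that fell, called family relatives with Ptp4a1, Ptp4a2, Phlda1 and Phlda2, and each member's nearest gene; Ctsa, Zmat2, Zmat5, the stress response genes and the markers singled out were named after their values were seen.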

Additional observations from a re-analysis of the deposited data

How the results depend on the processing

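No paired analysis was possible because the labels give no replicate numbers shared by the groups. No log2 ratio of a tested member changed sign under DESeq2, RLE scaling, no filter or without any 1 library. With group alone, 1 member was called under RLE scaling (Aen lost), and 0 to 1 without single libraries; set-adjusted, 2 to 6 were called, the lowest without null replicate 1 and the highest without control replicate 1. Over all genes, the group-alone count of 121 became 894 by DESeq2 and 280 with no filter, and 3 to 111 without single libraries, the lowest without null replicate 2. The set-adjusted count of 1346 became 2144 by DESeq2 and 202 to 1603 without single libraries. Of the other p53 targets, 25 were called with group alone by DESeq2, and 0 to 18 without single libraries. Set-adjusted, 18 to 26 of these targets were called without single libraries. Of the family relatives, 1 to 3 were called set-adjusted without single libraries. Both lists hold genes tested through null libraries alone, whose calls are no support. The causes of these shifts were not tested. For the difference between sets, 4 fits without a single library, chosen after seeing the data, called 0 members; without null replicate 1 or control replicate 3 a set would lose a group. Depth limits Gdf15, Dram1, Trp53i11 and Pltp most, with at most 10 reads each over the control group.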
